A study of Mus musculus with 12 samples.

Results

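The effect of PD-L2 overexpression on the transcriptome of vehicle-treated melanoma tumors was examined in 6 of the 12 tumors of the series. The 6 tumors were chosen by their labels alone: 3 were labelled as overexpressing PD-L2 and given vehicle (DMSO in the titles), and 3 lacked the overexpression and were given the same vehicle. All were YUMM1.7 tumors, which arise from a cultured mouse melanoma line carrying mutant Braf, and the sample labels place them in NSG mice whereas the series design names NOD/SCID mice. NSG mice lack functional T, B and NK cells but keep macrophages and other myeloid cells, and NOD/SCID mice lack T and B cells, so the usual T cell partners of PD-L2 are missing under either name. The remaining 6 tumors, 3 with and 3 without PD-L2, received a BRAF inhibitor (BRAFi), which the labels do not name further, and the series design describes them as resistant. They entered the fit to help estimate the spread between tumors and are reported here only beside the vehicle result. The promoter that drove PD-L2, whether the cells were a clone or a pool, and the age and sex of the mice are not stated by the labels. The labels number the tumors of each group from 1 to 3, and do not say whether each came from its own mouse. The p-values therefore measure the spread between these tumors.

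PD-L2, encoded by Pdcd1lg2, is a membrane protein of the B7 family. It binds the inhibitory receptor PD-1 on T cells, as does the related ligand PD-L1 (Cd274), and it also binds RGMb, a co-receptor for bone morphogenetic proteins that pairs with neogenin (Neo1). In most tissues PD-L2 is found mainly on dendritic cells and macrophages, and it is induced there by cytokines, while some tumor cells also carry it.

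Expression was deposited as FPKM, a fragment count divided by transcript length and by library size, so the depth of each library is unknown and errors are spreads between tumors. Of 23940 genes, 12117 averaged 1 FPKM or more across the 12 tumors and were tested as log2(FPKM + 1). A difference below is PD-L2 minus control on that scale with its standard error (SE), and it understates the change of genes with low FPKM. Summed FPKM ranged from 499845 to 648254 over the 12 tumors and from 16269 to 17469 genes were above 0. The median SD between tumors of a group was 0.187 on the log2 scale in the control vehicle tumors and 0.155 in the PD-L2 vehicle tumors. Several libraries stood apart: the third control tumor had a summed skeletal muscle marker level of 543 FPKM against 3.17 to 130.0 FPKM in the other 5 vehicle tumors, and the third PD-L2 tumor had the lowest macrophage marker sum, 1421 FPKM. The pigment cell markers that define melanocytes were low or at 0 in all 6 vehicle tumors. Tyrp1, Dct and Mlana were listed at 0 in each of them, Tyr was at 0.531 to 1.63 FPKM and Sox10, a neural crest transcription factor, was at 0.0307 to 0.569 FPKM. Only 5 of the 16 melanocyte markers passed the filter, among them Mitf, the master regulator of the lineage, at 3.57 to 4.92 FPKM. The melanoma label thus was not backed by pigment genes in these tumors.

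Pdcd1lg2 followed the labels. In the control vehicle tumors it was at 0.164, 0.133 and 0.278 FPKM, and in the PD-L2 vehicle tumors at 41.3, 58.2 and 114 FPKM. The groups were far apart, and the PD-L2 tumors differed among themselves, the third being the highest. The means were 0.192 ± 0.0765 and 71.2 ± 38.2 FPKM (SD, n = 3 each), a ratio of 372. The fitted difference was 5.80 ± 0.72 with an adjusted p of 0.0521 (limma, Benjamini-Hochberg over all 12117 genes), just outside the threshold of 0.05. Fitted to the 6 vehicle tumors alone, the same difference had an SE of 0.36 and an adjusted p of 0.013. A two-sided exact permutation test over the 6 tumors gave p = 0.1, which is the smallest this design allows.

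The endogenous partners were measured in the same tumors. Cd274, encoding PD-L1, was at 2.49, 2.13 and 2.66 FPKM without and 1.60, 2.08 and 1.37 FPKM with PD-L2. All 3 PD-L2 tumors were below all 3 control tumors, with a difference of -0.36 ± 0.24 that did not pass the test (adjusted p = 0.592). Pdcd1, the gene of PD-1, stayed under the filter at 0 to 0.184 FPKM and was not tested. Rgmb was at 23.7, 22.9 and 24.1 FPKM without and 26.4, 27.7 and 26.6 FPKM with PD-L2, a small difference of 0.18 ± 0.12 without overlap (adjusted p = 0.592). Neo1 was at 12.5 to 19.9 FPKM and 15.6 to 20.2 FPKM, and these ranges overlapped. RNA for RGMb and neogenin was thus present at levels far above that of PD-1 in these tumors.

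**Figure D1:**
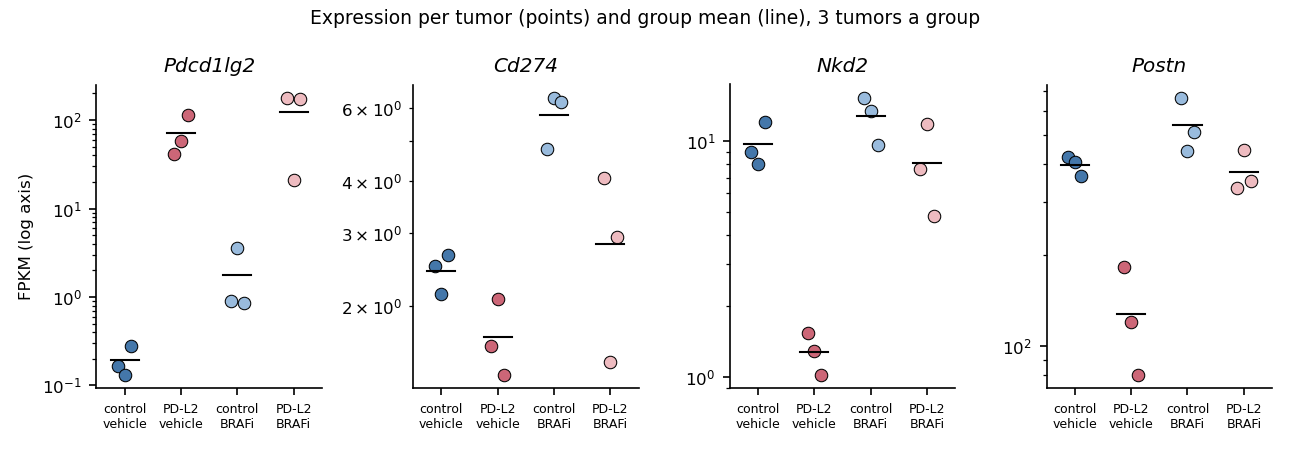
FPKM on a log axis of Pdcd1lg2, Cd274, Nkd2 and Postn in each tumor (points) and the group mean (line) for the 4 groups of 3 tumors. Pdcd1lg2 is at 41.3 to 114 FPKM in the PD-L2 vehicle tumors and under 1 FPKM in their controls, while Nkd2 and Postn are lower in every PD-L2 vehicle tumor than in every control vehicle tumor.

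No gene passed the adjusted threshold between the vehicle groups: 0 of 12117 genes, a percentage of 0. At an unadjusted p under 0.05, limma listed 1319 genes, or 10.9% of those tested, of which 748 (6.17%) were higher and 571 (4.71%) lower with PD-L2. The number was 831 without the second control tumor and 863 without the second PD-L2 tumor. In 1217 genes (10%) all 3 PD-L2 tumors lay above all 3 control tumors, and in 1276 genes (10.5%) all 3 lay below. The median difference over all tested genes was 0.01. Genes described below as higher or lower are therefore described by level and by these weaker marks, and the percentages are the background against which each group of genes is read. Fitted to the 6 vehicle tumors alone, 6 genes passed the adjusted threshold: Pdcd1lg2, Nkd2, Rerg, Adssl1 and the small RNA genes Mir6945 and Snora44.

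Nkd2, a membrane-bound inhibitor of Wnt signalling through Dishevelled, had the smallest p of all genes. It was at 9.0, 8.0 and 12 FPKM in the control tumors and 1.53, 1.28 and 1.02 FPKM in the PD-L2 tumors. The difference was -2.22 ± 0.27 with an adjusted p of 0.0521 in all 12 tumors and 0.0384 in the 6 vehicle tumors. Rerg, a small GTPase of the RAS family linked to growth restraint in breast cancer cells, was at 2.68, 2.03 and 2.45 FPKM without and 0.405, 0.224 and 0.398 FPKM with PD-L2 (-1.33 ± 0.31, adjusted p = 0.235, and 0.0384 in the 6 vehicle tumors). Adssl1, an enzyme of AMP synthesis, was the opposite case at 10.3, 10.3 and 10.4 FPKM without and 26.9, 22.9 and 27.7 FPKM with PD-L2 (1.24 ± 0.30, adjusted p = 0.246, and 0.0401 in the 6 vehicle tumors). The very close control values of Adssl1 were not shared by the BRAFi control tumors, which ranged from 8.56 to 21.6 FPKM.

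Another 6 genes outside the naming rule were singled out after their values were seen, and their common direction under vehicle comes from that choice. Pabpc4, a poly(A)-binding protein, was at 31.0, 33.8 and 32.2 FPKM without and 52.8, 50.4 and 57.1 FPKM with PD-L2 (0.71 ± 0.10, adjusted p = 0.0786). Por, the electron donor of microsomal cytochrome P450 enzymes, was at 50.5, 50.2 and 54.2 FPKM and at 84.8, 86.3 and 87.4 FPKM (0.73 ± 0.11, adjusted p = 0.116). Hspb6, a small heat shock protein, was at 17.9, 18.4 and 20.0 FPKM and at 27.9, 29.6 and 29.1 FPKM. Replicates of these genes lay close together and the groups well apart, which also comes from choosing them after their values were seen. Fstl3, a secreted inhibitor of activins, was at 3.07, 3.37 and 2.87 FPKM and at 6.46, 9.69 and 7.87 FPKM, a difference of 1.12 under vehicle beside 1.21 under BRAFi. Grik2, a kainate receptor subunit, was at 2.00 to 3.55 FPKM and at 7.39 to 9.38 FPKM, a difference of 1.29 under vehicle beside 1.08 under BRAFi. Tmem200b was at 7.45 to 9.68 FPKM and at 19.0 to 21.0 FPKM under vehicle, and its BRAFi difference was -0.22.

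The 15 protein-coding or long RNA genes with the largest lower levels came from 340 genes that had at least 5 FPKM, no overlap and an unadjusted p under 0.05. Eln, the elastin gene, was at 44.6, 33.8 and 48.3 FPKM without and 20.6, 12.4 and 3.49 FPKM with PD-L2. Mfap4, a microfibril-associated protein, was at 158, 110 and 115 FPKM and at 64.6, 28.5 and 9.32 FPKM, a difference of -2.23 ± 0.57. Mfap2, a component of fibrillin microfibrils, was at 48.5, 20.5 and 37.5 FPKM and at 14.8, 10.7 and 2.29 FPKM. In all of these genes the third PD-L2 tumor was the lowest, as it was for Islr, an immunoglobulin superfamily protein of stromal cells, at 14.1, 11.2 and 1.85 FPKM against 20.5 to 36.9 FPKM in the controls. Moxd1, a monooxygenase-like protein of the neural crest lineage, had the largest difference, -2.37 ± 0.61, at 13.4, 6.31 and 8.08 FPKM without and 1.83, 0.579 and 0.538 FPKM with PD-L2. Apod, a lipocalin that carries lipids, was at 924, 225 and 308 FPKM and at 172, 100.3 and 32.9 FPKM. The other members were Trp53i11, Crmp1, Fkbp11, Fam167a, Ccdc3, Rasl11b, Ms4a4c and H2-Aa besides Nkd2, with differences from -2.11 (Trp53i11) to -1.71 (Rasl11b). Their adjusted p-values reached down to 0.234 at Ccdc3, apart from that of Nkd2.

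Postn, encoding the matrix protein periostin, met the same marks outside the 15. It was at 423, 409 and 366 FPKM in the control tumors and 183, 121 and 80.5 FPKM in the PD-L2 tumors. The difference was -1.71 ± 0.26 with an adjusted p of 0.116, and no PD-L2 tumor overlapped the controls.

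Of the 571 genes that met these marks in the higher direction, the 15 largest were led by Pdcd1lg2. Stac2, a protein that binds voltage-gated calcium channels, was at 2.26, 3.08 and 0.896 FPKM without and 11.9, 9.87 and 26.4 FPKM with PD-L2 (2.42 ± 0.65, adjusted p = 0.282). Atp2a3, a calcium pump of the endoplasmic reticulum, was at 1.36, 0.875 and 0.707 FPKM and at 8.14, 3.62 and 24.4 FPKM (2.38 ± 0.50, adjusted p = 0.227). The third PD-L2 tumor was the highest for both. Il11, a cytokine of the interleukin-6 family, was at 5.76, 8.82 and 5.58 FPKM and at 23.3, 19.5 and 90.2 FPKM, and again the third PD-L2 tumor was highest. Hspb7, a small heat shock protein of muscle, was at 1.91, 1.46 and 3.47 FPKM and at 11.7, 13.0 and 11 FPKM, with similar values in the 3 PD-L2 tumors. Dmp1, a secreted phosphoprotein of mineralized tissue, was at 99.9, 76.7 and 110 FPKM and at 338, 450 and 328 FPKM. Mt1, a metal-binding metallothionein, was among the most abundant of them at 891, 741 and 373 FPKM without and 1816, 1998 and 1884 FPKM with PD-L2 (1.60 ± 0.36, adjusted p = 0.234). Wnt10a, a Wnt ligand, was at 1.42, 0.894 and 0.836 FPKM and at 8.62, 6.05 and 5.01 FPKM. The remainder were Has1, Klf4, Murc, Nr4a1, Meg3, Gm17644 and Prelp, with differences from 1.60 (Prelp) to 1.92 (Has1).

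**Figure D2:**
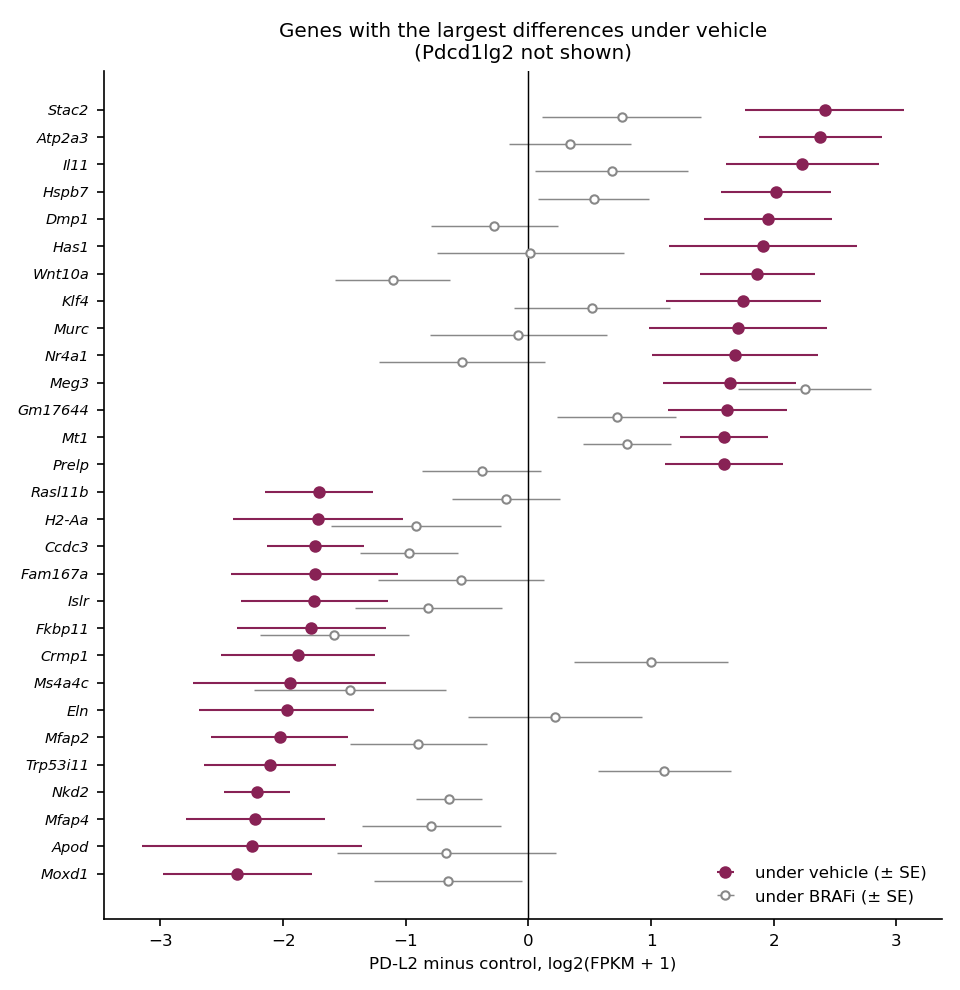
Difference between PD-L2 and control tumors in log2(FPKM + 1), with its standard error, for the 15 genes with the largest lower levels and 14 of the 15 with the largest higher levels under vehicle (Pdcd1lg2 left out). Filled points are vehicle tumors and open points BRAFi tumors. Trp53i11, Crmp1, Eln, Dmp1, Wnt10a, Murc, Nr4a1 and Prelp have point estimates of opposite sign under BRAFi.

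Small RNA genes were kept apart, since poly(A) libraries measure them poorly and an FPKM of 0 in this kind of file can be a failed estimate. Snora44 was at 18.9, 17.7 and 25.7 FPKM in the control tumors and listed at 0 in all 3 PD-L2 tumors, whereas Mir6945 was listed at 0 in the controls and at 28.9, 20.4 and 24.4 FPKM with PD-L2. Rnu12 was at 14.9 to 20.1 FPKM without PD-L2 and listed at 0 in all but the third PD-L2 tumor. Snora64 was at 35.7, 43.3 and 39.9 FPKM and at 27.0, 14.0 and 16.1 FPKM, and Snord104 at 212 to 333 FPKM and 423 to 543 FPKM. Under BRAFi the zeros of Snora44 and Mir6945 were spread over both groups.

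The type I interferon response had the most uniform difference among the 39 lists of pathway and cell type genes. Interferon-stimulated genes are switched on when transcription factors activated by interferon receptors bind the interferon-stimulated response element in their promoters. All 30 tested members had lower mean log2 levels in the PD-L2 tumors, with a median difference of -1.02 against 0.01 over all genes. In 28 of the 30, every PD-L2 tumor was below every control tumor, against 10.5% of all genes. Only 1 of the 30 had an unadjusted p under 0.05, against 4.71% of all genes in that direction, and 0 passed the adjusted threshold. Fitted to the 6 vehicle tumors alone, 29 of the 30 had an unadjusted p under 0.05 and still 0 passed the adjusted threshold. In that fit 1827 of all 12117 genes had an unadjusted p under 0.05 in either direction, against 1319 in the fit of all groups. Without either of the first 2 control BRAFi tumors in the fit, the list's count at an unadjusted p under 0.05 was 7 (first) or 11 (second). With the tumor number as a block it was 12. Over all genes these fits gave 1392, 1543 and 1383 in either direction. The list's count was 0 without the first control vehicle, the third control vehicle or the third PD-L2 vehicle tumor.

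The element was searched as 2 copies of GAAA with any 2 bases between them, or of TTTC for the other strand, in the RefSeq promoter windows of 300 bases. It was present in 10 of the 20 list members with an entry (50%), and in 3.99% of 27025 genes. The 150 bases before the start site of Oas1a, Isg15, Rsad2 and Ifit1 are shown because the element lies in each (capitals mark the matches, which may overlap, build GRCm38.p6).
Oas1a, chr5:120907526-120907675, minus strand: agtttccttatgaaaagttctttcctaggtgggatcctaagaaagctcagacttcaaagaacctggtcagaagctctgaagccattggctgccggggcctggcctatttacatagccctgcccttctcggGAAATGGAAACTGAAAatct
Isg15, chr4:156200819-156200968, minus strand: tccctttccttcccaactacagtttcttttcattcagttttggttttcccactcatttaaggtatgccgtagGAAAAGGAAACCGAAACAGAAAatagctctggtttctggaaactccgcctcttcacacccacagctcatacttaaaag
Rsad2, chr12:26456453-26456602, minus strand: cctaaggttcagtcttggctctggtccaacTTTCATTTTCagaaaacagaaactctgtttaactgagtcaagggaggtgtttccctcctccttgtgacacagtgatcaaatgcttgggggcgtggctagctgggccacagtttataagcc
Ifit1, chr19:34640739-34640888, plus strand: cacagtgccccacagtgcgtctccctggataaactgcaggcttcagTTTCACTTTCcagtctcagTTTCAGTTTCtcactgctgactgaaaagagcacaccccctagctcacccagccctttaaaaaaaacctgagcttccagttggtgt

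Oas1a, an antiviral synthetase activated by double-stranded RNA, was at 17.3, 8.93 and 14.7 FPKM without and 6.31, 4.37 and 2.86 FPKM with PD-L2 (-1.41 ± 0.62, adjusted p = 0.442). Isg15, a ubiquitin-like modifier, was at 182, 88.9 and 119 FPKM and at 63.8, 52.7 and 37.0 FPKM, a difference of -1.30. Rsad2, the antiviral enzyme viperin, was at 8.78, 6.93 and 9.60 FPKM and at 3.5, 4.12 and 2.75 FPKM. Every PD-L2 tumor lay below every control tumor for these genes, and the control values varied by up to about as much as the groups differed. Ifit1, which binds foreign RNA, was at 47.2, 28.1 and 31.1 FPKM and at 20.7, 16.4 and 13.2 FPKM. The RNA sensors Ifih1 and Dhx58 differed by -1.10 ± 0.55 and -1.12 ± 0.58, and the chaperone Rtp4 by -1.17 ± 0.60, all with adjusted p-values of at least 0.489. The median of the list was -0.78 without the third PD-L2 tumor and -0.83 without the first control tumor.

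MHC class I presentation genes, which carry peptides to the cell surface and are also inducible by interferon, were lower with PD-L2 in all 19 tested members. The median difference was -0.82, and 0 members passed the adjusted threshold. Without overlap between the groups were 15 members, against 10.5% of all genes in that direction. An unadjusted p under 0.05 was found for 3, against 4.71% of all genes. In the 6 vehicle tumors alone the count at an unadjusted p under 0.05 was 14, beside 1827 of all 12117 genes in either direction in that fit. In the fit of all groups the list's count was 0 without the third PD-L2 tumor and 1 without the first or the third control tumor. B2m, the light chain of class I molecules, was at 2288, 2039 and 2526 FPKM without and 1530, 1275 and 1230 FPKM with PD-L2. Psmb9, a subunit of the immunoproteasome, was at 34.4, 22.2 and 26.3 FPKM and at 14.2, 10.5 and 4.61 FPKM (-1.51 ± 0.59). Gbp4, an interferon-inducible GTPase, differed by -1.23 ± 0.50, the endoplasmic reticulum peptidase Erap1 by -0.56 ± 0.25 and the chaperone Pdia3 by -0.25 ± 0.11. The interferon element was in 6 of the 17 promoter windows of this list (35.3%).

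Most macrophage markers were also lower in the PD-L2 tumors, and in bulk tumor RNA fewer cells of a type and less RNA per cell cannot be told apart. Over the 22 macrophage markers the summed level was 4586, 3381 and 3092 FPKM in the control tumors and 3087, 2841 and 1421 FPKM in the PD-L2 tumors, so that the highest PD-L2 tumor lay just under the lowest control. Of the 22 markers, 21 had a negative difference, with a median of -0.65. Lower without overlap were 8, against 10.5% of all genes, and 4 were lower at an unadjusted p under 0.05, against 4.71%. Without the third PD-L2 tumor the median was -0.31 and the count at an unadjusted p under 0.05 was 0, as it was without the first control tumor (median -0.54). Csf1r, the macrophage growth factor receptor, was at 75.1, 60.2 and 73.2 FPKM and at 51.7, 48.7 and 22.4 FPKM. Ptprc, the leukocyte antigen CD45, was at 12.3, 12.1 and 15.5 FPKM and at 8.98, 7.81 and 5.01 FPKM. Aif1, a macrophage calcium-binding protein, differed by -1.19 ± 0.51, the Fc receptors Fcgr1 and Fcgr3 by -1.19 ± 0.53 and -0.76 ± 0.34, and the lysosomal protein Laptm5 by -0.65 ± 0.26. How far macrophage content takes part in the interferon and MHC differences was not tested.

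Tested members of the dendritic cell and MHC class II list were lower as well. Those named here are class II genes and do not by themselves show a dendritic cell difference. Of the 14 genes of dendritic cells and MHC class II, 6 passed the filter and all 6 were lower with PD-L2 (median -1.53). Without overlap were 5, against 10.5% of all genes, and 3 had an unadjusted p under 0.05, against 4.71%. H2-Aa, a class II chain, was at 74.1, 45.6 and 132 FPKM without and 33.5, 22.8 and 15 FPKM with PD-L2. Cd74, the class II invariant chain, was at 167, 90.7 and 299.6 FPKM and at 84.0, 48.4 and 31.0 FPKM, and H2-Eb1 at 19.5 to 59.7 FPKM and 6.95 to 16.3 FPKM. H2-DMa, which loads peptide onto class II, was at 10.6 to 16.1 FPKM and 4.97 to 9.35 FPKM. The summed level of the 14 genes was 350, 199 and 605 FPKM without and 174, 113 and 73.5 FPKM with PD-L2. Without any of 4 vehicle tumors (controls 1 and 3, PD-L2 tumors 2 and 3) the count at an unadjusted p under 0.05 was 0.

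Lymphocyte markers were nearly absent: 2 of 21 passed the filter, Cd4 and Cd79b, and the summed level was 6.28 to 7.81 FPKM without and 2.18 to 5.63 FPKM with PD-L2. Cd4, which some myeloid cells also carry, was at 3.26, 2.90 and 4.27 FPKM and at 2.31, 1.34 and 0.774 FPKM. Endothelial marker sums overlapped, at 258 to 343 FPKM without and 241 to 322 FPKM with PD-L2. Of the 16 tested members (median -0.13), 1 was lower without overlap, against 10.5% of all genes. It was Cdh5, the junction protein VE-cadherin, at 25.6, 26.2 and 95.3 FPKM and at 14.2, 11.7 and 11.8 FPKM. Pericyte and smooth muscle sums were 177 to 209 FPKM and 137 to 167 FPKM without overlap. Among them Rgs5, a pericyte regulator of G protein signalling, was at 26.1, 25.1 and 11.7 FPKM and at 7.80, 7.44 and 6.77 FPKM, whereas Cspg4, the proteoglycan NG2 that melanoma cells also carry, was higher at 12, 12.7 and 12.8 FPKM against 25.6, 29.9 and 37.1 FPKM (1.22 ± 0.23, adjusted p = 0.227). Fibroblast sums overlapped, with the third PD-L2 tumor lowest at 948 FPKM and the first PD-L2 tumor highest at 1608 FPKM. Mast cell markers had positive differences in 6 of 8 tested members (median 0.23), but the median was -0.11 without the first control tumor. Neutrophil, mast cell, Schwann cell, adipocyte, keratinocyte and erythroid lists had 3 to 8 tested members and at most 1 of them at an unadjusted p under 0.05. That member was Hbb-bs, a hemoglobin chain whose reads can be split with its near-identical copy Hbb-b1. Skeletal muscle markers had 11 tested members and 0 at that mark.

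**Figure D3:**
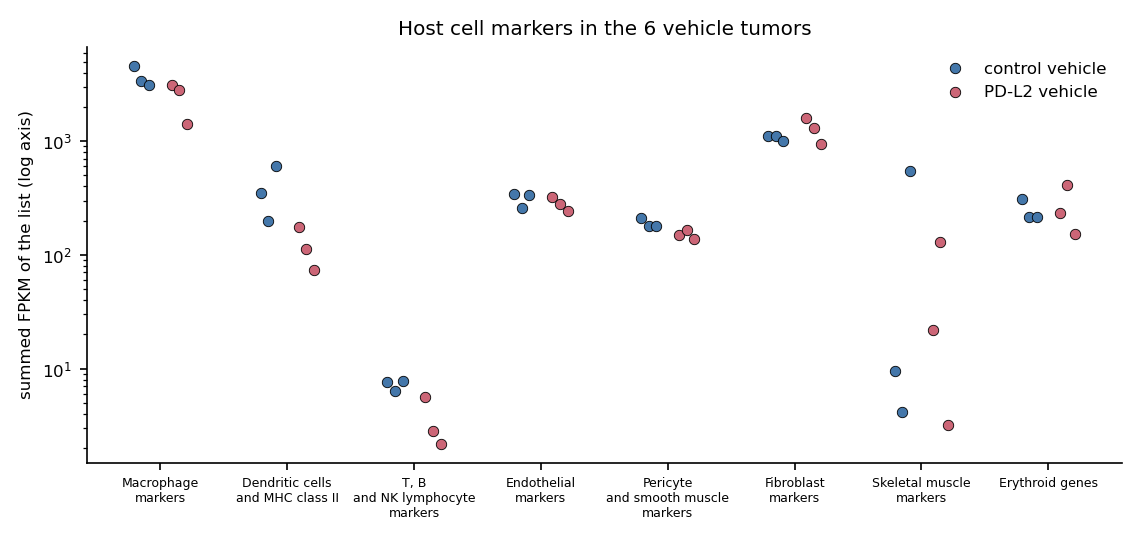
Summed FPKM (log axis) of marker lists of host cell types in the 3 control vehicle (blue) and 3 PD-L2 vehicle (red) tumors, each point a tumor. The dendritic cell and MHC class II sums are 199 to 605 FPKM in controls and 73.5 to 174 FPKM with PD-L2, and the skeletal muscle sum reaches 543 FPKM in the third control tumor.

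Other immune genes were lower in part. Of 21 B7 family and checkpoint genes besides Pdcd1lg2, 16 were tested and 13 were lower. Lower without overlap were 9, against 10.5% of all genes. At an unadjusted p under 0.05, 3 were lower, against 4.71%. That count was 0 without the third PD-L2 or the third control tumor and 1 without the first control tumor, and the median of -0.41 was -0.24 without the third PD-L2 tumor. Cd86, a costimulatory ligand of CD28 and CTLA-4, was at 6.05, 5.97 and 6.30 FPKM without and 3.29, 3.27 and 3.13 FPKM with PD-L2 (-0.75 ± 0.30). Lgals9, the galectin ligand of TIM-3, was at 67.6, 53.6 and 72.3 FPKM and at 35.5, 32.4 and 16.9 FPKM. Icosl, the ligand of ICOS, and Lag3, an inhibitory receptor, differed by -0.89 ± 0.36 and -0.62 ± 0.30. In the chemokine list, 5 of 20 tested members had an unadjusted p under 0.05 and were lower, against 4.71% of all genes. They included the chemokine receptors Ccr1, at 22.8, 33.0 and 25.9 FPKM without and 10.7, 11.6 and 10.5 FPKM with PD-L2 (-1.23 ± 0.25, adjusted p = 0.227), and Ccr2 (-0.97 ± 0.40). Ccl8, a monocyte chemokine, was at 223, 218 and 136 FPKM and at 103, 175 and 34.1 FPKM with overlap. The chemokine count was 1 without the third PD-L2 tumor, 2 without the second control tumor, and 3 without the first control or the second PD-L2 tumor. Among NF-kB targets and cytokines, 4 of 22 were higher and 1 lower at an unadjusted p under 0.05, against 6.17% and 4.71% of all genes. The lower share was near that of all genes. The counts were 6 and 0 without the third PD-L2 tumor, and 2 and 1 without the third control, the first PD-L2 or the second PD-L2 tumor. Lif, a cytokine of the interleukin-6 family like Il11, was at 2.00, 2.75 and 3.02 FPKM and at 5.33, 11.3 and 11.3 FPKM, Tnfaip2 was at 76.4 to 83.8 FPKM and 114 to 175 FPKM, and Birc3, an inhibitor of apoptosis, was lower (-0.47 ± 0.16).

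Glycolysis and hypoxia genes were the counterpart in the higher direction. Under low oxygen, HIF proteins bind the core ACGTG and raise the genes of glucose uptake, glycolysis and vessel growth. All 26 tested members had positive differences, with a median of 0.56. No overlap was seen in 16 of them, against 10% of all genes, and 9 had an unadjusted p under 0.05, against 6.17%, with 0 past the adjusted threshold. The count depended on single tumors: it was 3 without the first control tumor, where the median was 0.38, 5 without the second PD-L2 tumor and 18 without the second control tumor. In the 6 vehicle tumors alone it was 14, beside 1827 of all 12117 genes in either direction in that fit.

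The core, searched as ACGTG or CACGT on both strands, was in 18 of the 25 promoter windows of the list (72%) and in 21.8% of all genes. The 150 bases before the start of Aldoa and Slc16a3 are shown because the core lies in each (capitals, GRCm38.p6).
Aldoa, chr7:126799255-126799404, minus strand: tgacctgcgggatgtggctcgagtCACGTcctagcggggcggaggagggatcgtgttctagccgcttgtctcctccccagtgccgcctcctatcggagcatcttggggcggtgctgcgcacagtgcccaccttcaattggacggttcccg
Slc16a3, chr11:120948917-120949066, plus strand: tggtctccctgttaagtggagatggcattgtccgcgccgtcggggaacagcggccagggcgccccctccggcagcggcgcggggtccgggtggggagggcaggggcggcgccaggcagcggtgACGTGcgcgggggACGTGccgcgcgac

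Vegfa, the main growth factor of blood vessels, was at 21.8, 42.3 and 22.4 FPKM without and 43.0, 64.7 and 64.2 FPKM with PD-L2 (1.01 ± 0.28, adjusted p = 0.285). The second control tumor came close to the lowest PD-L2 tumor. Gapdh was at 688, 853 and 779 FPKM and at 981, 1220 and 1232 FPKM (0.56 ± 0.17), and Gpi1, an early glycolytic isomerase, at 162, 224 and 192 FPKM and at 269, 304 and 315 FPKM. Aldoa, the glycolytic aldolase, was at 617, 870 and 763 FPKM and at 998, 1058 and 1164 FPKM (0.53 ± 0.19). Slc16a3, the lactate exporter MCT4, was at 4.83, 10.9 and 7.55 FPKM and at 19.4, 16.3 and 17.3 FPKM, a difference of 1.15 under vehicle and 1.88 under BRAFi. The first control tumor was the lowest for each of these 5 genes. Oxidative phosphorylation genes had a median of -0.12, with 26 of 34 negative. At an unadjusted p under 0.05 there was 1, the complex I subunit Ndufb8 (-0.42 ± 0.16), against 4.71% of all genes in that direction. The median was 0.032 without the first control tumor, and the count was 6 without the third control tumor.

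**Figure D4:**
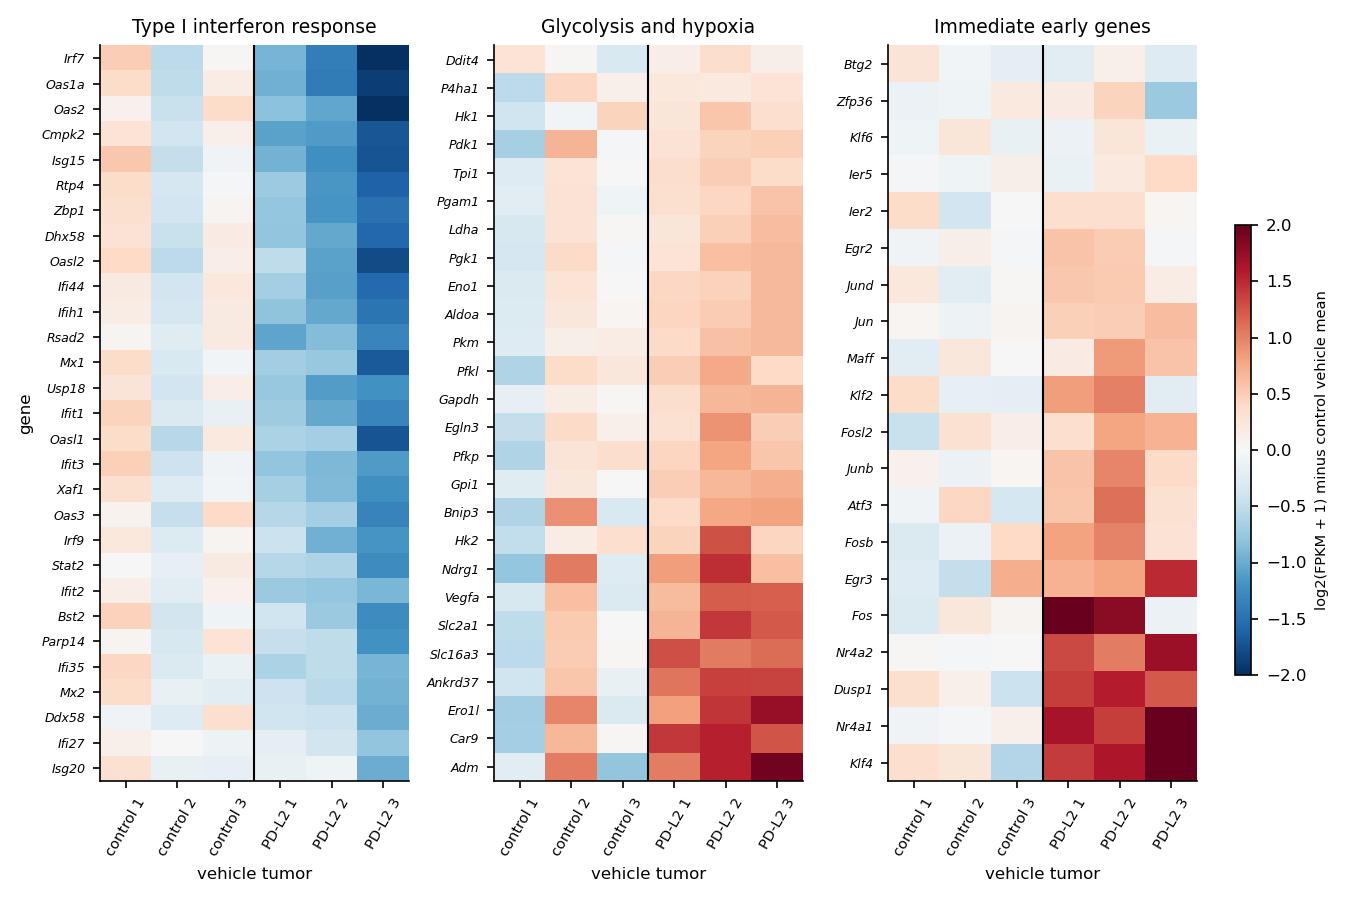
Tested members of 3 gene lists (rows, with 1 interferon member not shown) in the 6 vehicle tumors (columns), coloured by log2(FPKM + 1) minus the mean of the 3 control vehicle tumors, with colours ending at 2 on either side. The interferon list is lower in the PD-L2 tumors and lowest in the third, the glycolysis and hypoxia list is higher, with the first control tumor lowest, and the immediate early list is higher in 17 of 20 members by their mean.

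Immediate early genes, the transcription factors that cells switch on within minutes of growth factor or stress signals, were also higher. Of 20 tested members, 17 had positive differences with a median of 0.58, and 12 had an unadjusted p under 0.05, against 6.17% of all genes in that direction. Higher without overlap were 7 of the 20, against 10% of all genes. At an unadjusted p under 0.05, leaving out any 1 of the 6 vehicle tumors gave counts from 6 to 9, while scaling all tumors to the same FPKM sum gave 7. Jun, an AP-1 subunit, was at 62.4, 56.2 and 62.8 FPKM without and 84.4, 85.0 and 92.8 FPKM with PD-L2 (0.52 ± 0.11, adjusted p = 0.227), and its BRAFi difference was 0.54. Junb, another AP-1 subunit, was at 55.5, 48.1 and 53.5 FPKM and at 77.9, 104 and 68.2 FPKM. The nuclear receptor Nr4a1 was at 3.39, 3.53 and 3.98 FPKM and at 13.6, 11 and 17.9 FPKM, and its relative Nr4a2 at 4.38, 4.23 and 4.36 FPKM and at 12.3, 9.88 and 16.5 FPKM. Control values of the nuclear receptors were close together and every PD-L2 tumor was well above them. Klf4, a zinc finger regulator of differentiation, was at 20.4, 19.0 and 10.3 FPKM and at 43.7, 51.1 and 78.3 FPKM, while Egr3 overlapped between the groups.

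ERK pathway output, the set of genes that reads out BRAF and MEK activity, showed a smaller shift with a median of 0.23. Of its 19 tested members 16 were positive. At an unadjusted p under 0.05, 3 were higher, against 6.17% of all genes. The count was 1 without the first control, the second control or the third PD-L2 tumor and 1 after scaling to the same FPKM sum, and the median was 0.12 without the third PD-L2 tumor. The 3 genes were Fosl1, an AP-1 subunit, at 7.09, 9.75 and 9.02 FPKM without and 13.2, 19.1 and 25.7 FPKM with PD-L2, the cyclin Ccnd1 at 193, 205 and 250.4 FPKM and at 258, 307 and 419 FPKM, and Egr1 at 18.6, 15.2 and 17.8 FPKM and at 35.5, 43.2 and 29.6 FPKM. Dusp6, a feedback inhibitor of the pathway, was 1 of the 3 negative members (-0.41 ± 0.22). Spry4, another feedback inhibitor, differed by 0.21 ± 0.21. Braf was at 2.30 to 4.43 FPKM and 3.76 to 4.55 FPKM. Among receptor tyrosine kinases, Axl was at 147, 140 and 155 FPKM without and 172, 172 and 207 FPKM with PD-L2 (0.31 ± 0.12, adjusted p = 0.414), Igf1r differed by 0.49 ± 0.18, Ephb2 by -0.76 ± 0.28 and Egfr by -0.15 ± 0.29. The median of the 14 tested receptors was 0.02.

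In the RGMb, neogenin and BMP list the median was 0.08, with 12 of 20 tested members positive. It was 0.0051 without the first control tumor and 0.16 without the third. At an unadjusted p under 0.05 there were 3, all higher: Fst, the secreted activin and BMP antagonist follistatin, at 3.58, 2.49 and 2.22 FPKM without and 4.12, 6.53 and 5.96 FPKM with PD-L2 (0.79 ± 0.18, adjusted p = 0.234), the inhibitory Smad7 (0.54 ± 0.18) and the BMP antagonist Grem1 (0.95 ± 0.39). The count was 1 without the second PD-L2 tumor and 2 without the first control, the third control or the third PD-L2 tumor. Bmp2, a ligand, was at 28.4, 51.1 and 41.5 FPKM and at 69.3, 71.3 and 110 FPKM, with an adjusted p of 0.484. In the TGF-beta and activin list, 2 of 17 were higher and 2 lower at an unadjusted p under 0.05, against 6.17% and 4.71% of all genes. The higher count was 0 without the first control tumor and 1 without any other 1 of the vehicle tumors or after scaling to the same sum. Tgfb2 was at 7.97, 9.03 and 8.48 FPKM and at 6.19, 3.82 and 3.79 FPKM (-0.79 ± 0.17, adjusted p = 0.234), and its receptor Tgfbr1 differed by -0.34 ± 0.12. Inhba, the activin A subunit, was at 11.5, 10.9 and 12.3 FPKM and at 23.4, 22.2 and 21.4 FPKM.

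Among Wnt genes, the ligand Wnt10a and the secreted Wnt inhibitor Notum (5.24, 4.07 and 4.75 FPKM without, 14.1, 11.6 and 14.7 FPKM with PD-L2) were higher, while Nkd2 and Axin2, a feedback target of beta-catenin (-0.62 ± 0.25), were lower. Of the 12 tested Wnt genes 3 were higher and 2 lower at an unadjusted p under 0.05, against 6.17% and 4.71% of all genes. The Wnt median was 0.29 (0.17 without the first control tumor). The lower count was 1 without the second control, the third control, the second PD-L2 or the third PD-L2 tumor. Wnt5a, a noncanonical Wnt ligand of invasive melanoma, was at 12.3, 13.4 and 25.7 FPKM and at 3.94, 5.69 and 5.38 FPKM (-1.53 ± 0.31, adjusted p = 0.227). It was the only member of the dedifferentiation and mesenchymal list that was lower at an unadjusted p under 0.05, beside 4 of 15 that were higher. The higher ones included Fn1, encoding fibronectin, at 357, 557 and 693 FPKM and at 1214, 1416 and 893 FPKM (1.16 ± 0.27), and Vim, encoding the filament protein vimentin, at 2626, 2505 and 2427 FPKM and at 3484, 3589 and 4325 FPKM (0.59 ± 0.16). Of the melanocyte markers, Gpnmb, a lysosomal glycoprotein that macrophages also make, was at 5.50, 3.44 and 2.82 FPKM and at 13.3, 9.92 and 14.0 FPKM, and the endothelin receptor Ednrb at 0.615, 2.44 and 1.08 FPKM and at 5.69, 12.1 and 1.52 FPKM. Mitf did not differ beyond its spread (0.17 ± 0.18). YAP and TEAD targets had a median of 0.19. At an unadjusted p under 0.05, 3 of 14 were higher, against 6.17% of all genes, Ptpn14 and Myof among them. The median was 0.039 without the second PD-L2 tumor and 0.081 without the first control tumor, and the count was 1 without the second control or the third PD-L2 tumor and 1 after scaling to the same sum.

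Matrix genes had no common direction. Of 26 tested collagens, laminins and matrix proteins, 5 were higher and 3 lower at an unadjusted p under 0.05. The shares over all genes were 6.17% and 4.71%, and the list median was -0.01. There were 6 higher and 1 lower (median 0.27) without the third PD-L2 tumor, 8 higher and 1 lower (median 0.10) without the third control tumor, and 3 each way without the second control or the second PD-L2 tumor. Spp1, the secreted phosphoprotein osteopontin, was at 4387, 4853 and 3583 FPKM without and 11570.1, 9011 and 9013 FPKM with PD-L2 (1.21 ± 0.30, adjusted p = 0.251). Dcn, encoding the small proteoglycan decorin, was at 206, 234 and 128 FPKM and at 469, 354 and 279 FPKM, and Col18a1 at 247 to 326 FPKM and 344 to 384 FPKM. Col1a1, the main fibrillar collagen, was at 323, 329 and 507 FPKM and at 865, 682 and 213 FPKM, and the third PD-L2 tumor was the lowest of the 6. Postn and Eln, given above, were the lower ones among the named. Of 19 metalloproteinases and their inhibitors, 2 were higher and 2 lower at that mark, with 1 lower without the third control tumor and 1 higher without the second PD-L2 tumor. Mmp9, a gelatinase of tumor and myeloid cells, was at 49.0, 22.9 and 43.8 FPKM and at 12.3, 8.43 and 17.2 FPKM (-1.52 ± 0.32, adjusted p = 0.227), and Mmp3, a stromelysin, at 250.1, 438 and 554 FPKM and at 227, 188 and 161 FPKM. Timp1, an inhibitor of these enzymes, was at 387, 488 and 389 FPKM and at 764, 826 and 973 FPKM, and Timp3 differed by 0.29 ± 0.11.

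Proliferation lists had medians near 0. Over all genes, 6.17% were higher and 4.71% lower at an unadjusted p under 0.05, beside which the counts below are read. DNA replication genes had a median of 0.03, with 3 of 24 higher at an unadjusted p under 0.05 (Cdt1, Pold1 and Mcm7), and mitosis genes a median of 0.04 with 0 of 22. The replication count was 1 without the first control, the second control or the third PD-L2 tumor. Mki67, the proliferation marker Ki-67, was at 10.3, 15.6 and 20.4 FPKM without and 20.8, 21.7 and 20.6 FPKM with PD-L2. Cytosolic ribosomal protein genes had a median of 0.14. Higher at that mark was 1 of 29 (Rpl23), under the share of all genes, but 9 of 29 without the first control tumor. Sterol and fatty acid synthesis genes had a median of 0.36, with 20 of 22 positive and 2 at that mark, Fdft1 and Fasn, the fatty acid synthase, at 16.2, 15.9 and 27.5 FPKM and at 30.3, 34.1 and 35.0 FPKM. Without the third PD-L2 tumor the sterol median was 0.11. Among stress response genes 1 of 21 was lower at that mark, near the share of all genes. It was the chaperone Dnajc3 (-0.37 ± 0.11). In the p53 and apoptosis list, 4 of 22 were higher and 2 lower, with 2 higher without the second control, the second PD-L2 or the third PD-L2 tumor. The survival factor Bcl2l1 was at 30.1, 24.4 and 26.5 FPKM and at 36.9, 47.0 and 45.5 FPKM (0.65 ± 0.14, adjusted p = 0.231), and the pro-death Bbc3 at 4.29 to 4.55 FPKM and 5.88 to 6.47 FPKM, while the caspase Casp8 (-0.39 ± 0.11) was among the lower. Lysosome and autophagy genes had a median of 0.02, with 2 of 22 higher (Sqstm1 and Mcoln1) and 1 lower (Ctsh), and leaving out 1 vehicle tumor gave 0 or 1 higher and 0 to 2 lower.

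The BRAFi tumors gave the same contrast in 6 other tumors, with a shared estimate of the spread. Under BRAFi, 9 of 12117 genes passed the adjusted threshold (0.0743%), with 7 higher (0.0578%) and 2 lower (0.0165%) in the PD-L2 tumors. Pdcd1lg2 was among the higher ones (5.11, adjusted p = 0.0454). At an unadjusted p under 0.05 there were 856 genes (7.06%), of which 515 (4.25%) were higher and 341 (2.81%) lower. Of the 1319 vehicle genes at an unadjusted p under 0.05, 985 (74.7%) had the same sign under BRAFi, against 59.2% of all genes. Of the 1319, 165 (12.5%) also had an unadjusted p under 0.05 in the same direction and 20 in the opposite direction. Their median absolute difference was 0.49 under vehicle and 0.18 under BRAFi. Since these genes were chosen by their vehicle values, a smaller size in the other tumors is built into the choice.

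By list, the interferon genes had a BRAFi median of -0.92 with all 30 negative, but in 0 of them were the BRAFi groups free of overlap, against 4.78% of all genes in that direction. Class I genes were negative in all 19 (median -0.57, 1 without overlap), and macrophage markers in 18 of 22 (median -0.27, 0 without overlap). Glycolysis and hypoxia genes were positive in 25 of 26 (median 0.65), with 12 at an unadjusted p under 0.05, against 4.25% of all genes, and 9 without overlap, against 6.68%. Immediate early genes had a BRAFi median of 0.16. Ribosomal protein genes were higher under BRAFi in all 29 (median 0.43), with 20 at an unadjusted p under 0.05, against 4.25% of all genes. Erythroid genes were higher in 5 of 6 (median 1.60), with 4 at an unadjusted p under 0.05, against 4.25% of all genes, and 4 without overlap, against 6.68%.

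**Figure D5:**
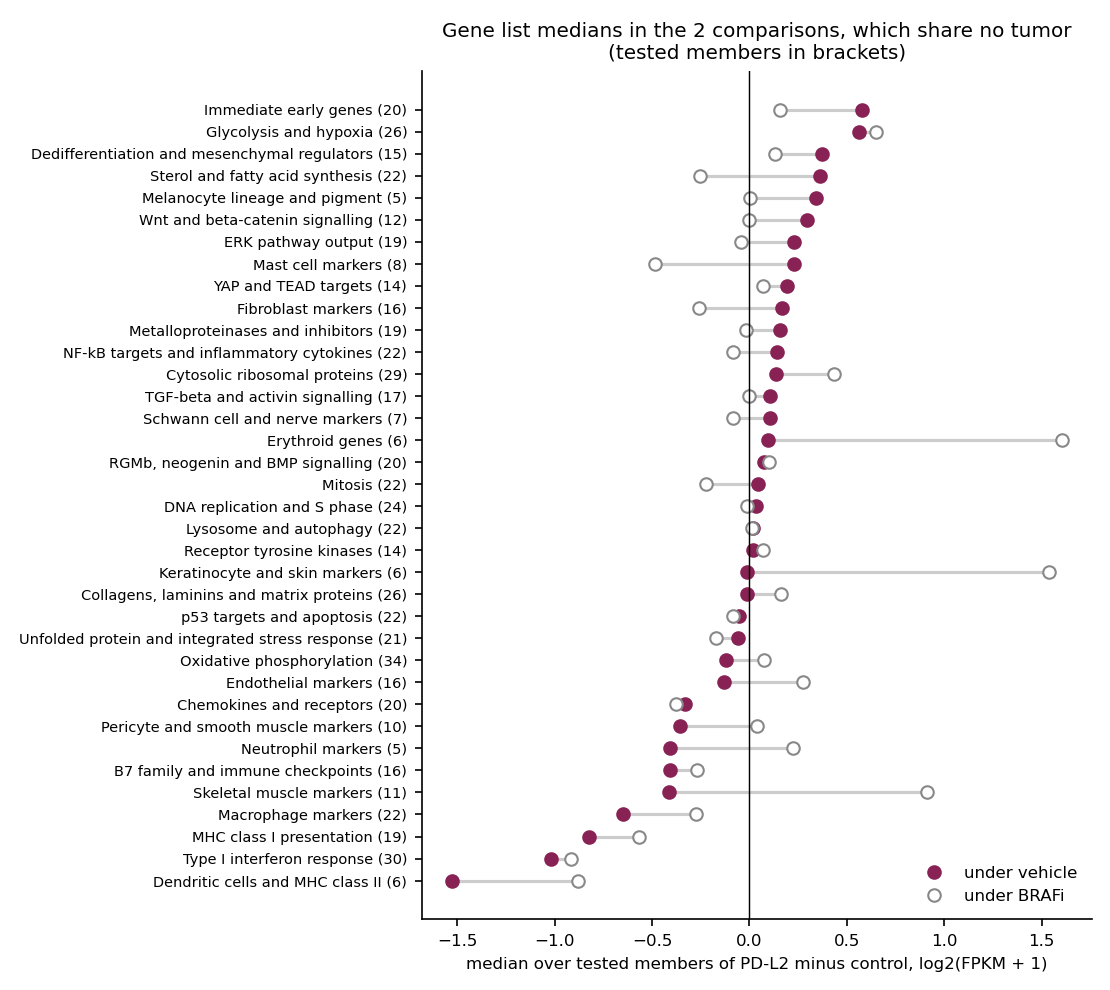
Median over the tested members of each list of the difference between PD-L2 and control tumors in log2(FPKM + 1), under vehicle (filled) and BRAFi (open), for lists with at least 5 tested members (number in brackets). The interferon and glycolysis medians are near each other in both comparisons (-1.02 and -0.92, 0.56 and 0.65), and the sterol list changes sign.

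The difference between the PD-L2 effects was tested directly as an interaction, which 2 of 12117 genes passed (0.0165%), with 542 (4.47%) at an unadjusted p under 0.05, of which 265 (2.19%) were above and 277 (2.29%) below 0. That number was 888 without the third control vehicle tumor and 898 without the third PD-L2 BRAFi tumor. The 2 genes that passed are microRNA genes, Mir212 and Mir1940, listed at 0 in every vehicle tumor. Of the 6 tested erythroid genes, 5 had an unadjusted interaction p under 0.05 in limma, against 4.47% of all genes, and 0 passed the adjusted threshold. Mmp9 was lower with PD-L2 under vehicle (-1.52) and higher under BRAFi (0.86, 137, 119 and 161 FPKM against 104, 64.5 and 64.9 FPKM), and the interaction had an unadjusted p of 0.00029 in limma. Nkd2 differed by -2.22 under vehicle and -0.65 under BRAFi (unadjusted interaction p of 0.0018 in limma, over all genes fitted), Trp53i11 by -2.11 and 1.11, and Wnt10a by 1.87 and -1.11. Nkd2, Trp53i11 and Wnt10a were named for large vehicle differences. That choice alone makes a smaller BRAFi difference and a low interaction p more likely, and none of them passed the adjusted interaction threshold. For Pdcd1lg2 itself the interaction had an unadjusted p of 0.52, with 0.898, 3.54 and 0.863 FPKM in the control BRAFi tumors and 176, 20.8 and 171 FPKM in those with PD-L2, where the second had the least.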

How the data were processed

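RNA was measured in 12 tumors in 4 groups of 3. Per the labels, libraries were unstranded TruSeq version 2 libraries of poly(A) RNA. The labels' protocol says paired-end reads, while the series design says single-end reads of 50 bp. Values are FPKM, deposited by the authors as a single table. The mm9 build, TopHat, TopHat2, Cuffnorm and Cuffdiff are named by the submitters' processing notes, with no version or setting. Without strand, reads of overlapping genes cannot be told apart. Whole reads could not be recovered: over 66 pairs of tumors, at most 0.2 of low genes shared a ratio within 0.1 on the log2 scale.

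From the FPKM, log2(FPKM + 1) was fitted for the 12117 genes of mean at least 1 FPKM with limma 3.58.1 in R 4.3.3 (4 group means over 12 tumors, empirical Bayes with a trend), which pools the spread of all groups. P-values are two-sided, adjusted by Benjamini-Hochberg over all genes, threshold 0.05. The fit was tested on simulated data for this comparison (12117 genes, 3 tumors a group). There it recovered 72% of 100 genes changed by 1 and 91% of 100 changed by 2 (log2). All 200 changed genes were drawn from genes with higher mean levels, so the rates do not cover genes with low FPKM. Whether these rates hold for the measured tumors, whose sample weights ran from 0.327 to 15.7, was not tested. In the measured tumors Pdcd1lg2 missed the threshold at a difference of 5.80. Genes were named by rule: Pdcd1lg2, the 15 largest differences each way with at least 5 FPKM, no overlap and unadjusted p under 0.05, up to 4 small RNA genes, genes called in the 6 vehicle tumors, up to 4 members a list by smallest p, a set of 24 genes, and interaction calls. Pabpc4, Por, Hspb6, Fstl3, Grik2, Tmem200b, and Isg15, Rsad2, Ifit1 and Slc16a3, shown for their promoters, lie outside it, as do the pigment genes Tyr, Tyrp1, Dct and Mlana. The genes, lists and tests were chosen with earlier results of these data known. Promoters are RefSeq's (GRCm38.p6), a build other than that of the values. A few genes that the naming rule selects are not reported here.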

Additional observations from a re-analysis of the deposited data

Results flagged for a closer look

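The genes Mir212 and Mir1940 were picked out because the PD-L2 effect differed between treatments by a test of that difference (limma, adjusted p under the threshold). The effect under BRAFi minus that under vehicle was 4.18 for Mir212 and 3.61 for Mir1940 on the log2(FPKM + 1) scale. The 3 tumors with PD-L2 and BRAFi had 18.2, 14.8 and 18.5 FPKM of Mir212 and 11.5, 9.33 and 12.9 FPKM of Mir1940, and both genes were listed at 0 in the other 9 tumors. These estimates rest on zeros in 3 of the 4 groups, poly(A) libraries measure microRNA genes poorly, and no fold is given.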

How the results depend on the processing

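The count of genes past the adjusted threshold under vehicle was 0 in the fit reported. It was 6 in the 6 vehicle tumors alone, 2 with a pseudocount of 0.1 or 0.5 or a filter at a mean of 5 FPKM, 7 with no filter, 1 after quantile normalization, 1584 with sample weights (920 higher and 664 lower, weights from 0.327 to 15.7), and 0 to 3 when any 1 tumor was left out (3 without PD-L2 vehicle tumor 1, 2 without PD-L2 BRAFi tumor 2, and 1 without control tumor 1 of either treatment or PD-L2 BRAFi tumor 1 or 3). Pdcd1lg2 passed in the 6 vehicle tumors (5.80), with pseudocounts of 0.1 (7.83) and 0.5 (6.57), with the filter at 5 FPKM (5.80), with sample weights (5.65) and without the second PD-L2 BRAFi tumor (5.80), and ran from 5.39 to 6.12 over the 12 fits without 1 tumor. The BRAFi count was 9, and it was 2 with the length trend removed, with no filter or without the variance trend, 3 after scaling to the same sum, 1032 with sample weights and 2 to 14 leaving out a tumor (14 without control BRAFi tumor 3). The interaction count was 2, and it was 1 with a pseudocount of 0.1, 0 with the filter at 5 FPKM, 27 with sample weights and 2 to 5 leaving out a tumor (5 without PD-L2 vehicle tumor 1 or control BRAFi tumor 3, 4 without PD-L2 BRAFi tumor 1). At an unadjusted p under 0.05 the vehicle number of 1319 was 1984 with no filter, 3872 with sample weights and 831 to 1549 leaving out a tumor. The BRAFi number of 856 was 1837 after scaling to the same sum, 3488 with sample weights and 687 to 1045 leaving out a tumor. The interaction number of 542 was 906 with no filter, 2545 with sample weights and 368 to 898 leaving out a tumor. The cause of these shifts was not tested. Over the 3 vehicle pairs of tumors with the same number, the correlation of deviations over all tested genes was -0.164 to 0.0882. The summed interferon list was highest in tumor 1 of all 4 groups (control vehicle 1427, PD-L2 vehicle 727, control BRAFi 1704 and PD-L2 BRAFi 830 FPKM). These values do not settle whether the groups are paired by the tumor numbers. As a block the numbers gave a vehicle count of 0, a BRAFi count of 2 (2 also with the length trend removed), and, in an alternative chosen after seeing the data, 2 in the 6 vehicle tumors. Among the genes named, 4 with small vehicle differences changed sign. Egfr was at 0.11 with sample weights and at -0.27 to 0.075 leaving out a tumor, and the ranges leaving out a tumor also crossed 0 for Neo1 (-0.062 to 0.25), Braf (-0.0023 to 0.36) and Hbb-b1 (-0.25 to 0.47). With a pseudocount of 0.1 the interaction of Mir1940 was 6.82 (adjusted p = 0.0633, limma). Depth is unknown, so no detection limit can be given.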
